A study of Homo sapiens with 6 samples.

Results

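Of the 58395 gene rows counted in 6 clonal HEK293 lines, 34 belong to genes reported as imprinted in people, some of them in certain tissues only, listed by symbol and matched to the deposited tables by gene identifier. The 34 genes lie in 20 imprinted regions and were chosen by name, not by their level. HEK293 is an established line of human embryonic kidney origin. All 6 lines overexpressed a protein with the tag written as 3F in the labels. The 3 GST lines (numbers 2, 8 and 9) carried glutathione S-transferase, the control protein, and the 3 NOCT lines (numbers 4, 11 and 12) carried nocturnin ∆(2-15), a form of the protein without residues 2 to 15. Each line is 1 clone and gave 1 library of total RNA, so a difference between the groups cannot be told apart from differences between clones where few clones carry it. The promoter that drove the constructs was not given in the sources used here.

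Imprinted genes are expressed mainly from the copy inherited from one parent. The choice of copy is set by DNA methylation laid down in the germ line at imprinting control regions, and a control region usually governs several genes nearby, some active on the maternal copy and some on the paternal copy. Many of these genes act on fetal growth. The reads used here were counted per gene and do not separate the parental copies, so a level is the sum over both, and fewer expressing cells and less RNA per cell cannot be told apart in such bulk libraries.

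The libraries held 19729745 to 24422406 reads on named genes and 26140 to 27682 genes with a count. Each library held the construct of its label: the GST construct had 46 to 88 counts in the GST lines and 0 to 1 in the NOCT lines, and the NOCT construct had 46 to 82 counts in the NOCT lines and 3 to 7 in the GST lines. The 8 markers fixed for HEK293 all reached a mean of 1 CPM (read counts divided by the TMM-adjusted library size), with a summed level of 902 to 1223 CPM in the GST lines and 1062 to 1923 CPM in the NOCT lines. Among markers of other cell types, 0 of 4 blood and 0 of 4 liver markers reached 1 CPM, as did 1 of 4 fibroblast markers (COL1A1) and 1 of 4 trophoblast markers (CGA). Values by line follow the order GST lines 2, 8 and 9, then NOCT lines 4, 11 and 12. Levels of different genes are compared only as TPM, which is scaled for gene length.

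The promoters of the imprinted genes were compared by the motif TGCCGC, searched on both strands with overlapping matches counted. This hexamer is the sequence that ZFP57, a zinc finger protein that maintains imprints, binds when its CpG is methylated. RefSeq promoter windows on GRCh38.p14, each 300 bases long from 250 before to 50 after a transcript start, were found for 23 of the 34 genes. There was no entry for PEG3, ZIM2, KCNQ1OT1, SLC22A18, PHLDA2, CDKN1C, PEG10, SGCE, NNAT, IGF2 or DLK1. The motif occurred at least once in 21 of 54 windows (38.9%), against 5839 of 34943 windows of all genes (16.7%). Some windows of the same gene overlap, as in MEG3, MEST and BLCAP, so windows are not independent. By gene, 14 of 23 imprinted genes (60.9%) had the motif in a window, against 5319 of 27305 genes (19.5%). The imprinted genes had more windows per gene, which gives more places for a match. At least 2 matches were found in 6 windows (11.1%), against 961 of all windows (2.75%). The windows of imprinted genes had a median of 18 CpG dinucleotides and 61.0% G and C, against 14 and 58.7% over all windows. Of the 6 windows with at least 2 matches, 5 are shown as the richest in the motif, and the other is a MEST window that overlaps the one shown. The 5 windows have the motif and its reverse complement in capitals and are each read along the strand of the gene. They are DIRAS3 at chr1:68050578-68050877 (minus strand, 21 CpG), NAP1L5 at chr4:88697780-88698079 (minus strand, 18 CpG), the start shared by PLAGL1 and HYMAI at chr6:144008210-144008509 (minus strand, 39 CpG), MEST at chr7:130491835-130492134 (plus strand, 25 CpG) and SNRPN at chr15:24954737-24955036 (plus strand, 18 CpG).
DIRAS3: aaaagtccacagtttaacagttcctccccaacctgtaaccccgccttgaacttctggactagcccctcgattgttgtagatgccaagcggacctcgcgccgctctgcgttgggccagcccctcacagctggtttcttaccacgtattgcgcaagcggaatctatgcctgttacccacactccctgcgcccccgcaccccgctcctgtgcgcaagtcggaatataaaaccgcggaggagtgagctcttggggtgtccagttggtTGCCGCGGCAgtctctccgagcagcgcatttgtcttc
NAP1L5: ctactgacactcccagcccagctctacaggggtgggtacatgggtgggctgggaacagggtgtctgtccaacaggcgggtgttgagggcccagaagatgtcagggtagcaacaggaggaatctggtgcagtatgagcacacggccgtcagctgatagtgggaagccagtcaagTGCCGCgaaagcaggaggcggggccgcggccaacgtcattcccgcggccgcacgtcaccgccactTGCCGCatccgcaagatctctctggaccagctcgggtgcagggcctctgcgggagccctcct
PLAGL1 and HYMAI: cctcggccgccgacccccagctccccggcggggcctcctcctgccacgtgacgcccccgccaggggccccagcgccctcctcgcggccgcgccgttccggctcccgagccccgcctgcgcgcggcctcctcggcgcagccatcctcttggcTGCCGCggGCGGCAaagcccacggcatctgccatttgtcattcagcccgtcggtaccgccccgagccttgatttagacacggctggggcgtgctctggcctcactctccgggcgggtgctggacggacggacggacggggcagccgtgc
MEST: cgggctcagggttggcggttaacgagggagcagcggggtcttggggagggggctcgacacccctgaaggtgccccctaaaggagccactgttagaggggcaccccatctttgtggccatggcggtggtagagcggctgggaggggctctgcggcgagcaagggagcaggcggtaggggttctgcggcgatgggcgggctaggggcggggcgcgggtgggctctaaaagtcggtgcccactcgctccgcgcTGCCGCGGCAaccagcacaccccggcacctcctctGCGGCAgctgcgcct
SNRPN: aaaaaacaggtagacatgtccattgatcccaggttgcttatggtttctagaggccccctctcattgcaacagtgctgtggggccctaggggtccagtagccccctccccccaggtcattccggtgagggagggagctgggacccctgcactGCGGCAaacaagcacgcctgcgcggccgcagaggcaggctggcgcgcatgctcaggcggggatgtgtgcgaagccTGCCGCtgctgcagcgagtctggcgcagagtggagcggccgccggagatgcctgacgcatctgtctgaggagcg
In DIRAS3 and in MEST a match and its reverse complement overlap. The MEST window holds 3 matches, counting both of that overlapping pair. The RNA of these genes ranged from undetected (SNRPN) to moderate (PLAGL1 and MEST), and no methylation was measured, so a match describes the letters of the window only.

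The imprinted genes ranged from almost no RNA to clear expression, with some in between. Of the 34, 9 genes had at most 3 counts in every library (26.5%, against 58.6% of all gene rows), and 5 of these had 0 counts throughout (14.7%, against 40.9%). Among protein-coding genes the shares were closer, 8 of 30 imprinted genes (26.7%) and 23.3% of all. The filter on low counts kept 21 of the 34 (61.8%, against 29.6% of all rows), or 19 of 30 protein-coding genes (63.3%, against 67.4%), and 18 averaged 1 CPM or more.

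The SNRPN and UBE3A region of chromosome 15 was the clearest divided region. Its paternally expressed members had few or no counts. SNRPN, which encodes a spliceosome protein, and NDN and MAGEL2, which encode MAGE family proteins, had 0 counts in all 6 libraries. A count of 0 allows up to 3 counts. MKRN3, a ubiquitin ligase gene, had 0, 1 and 0 counts in the GST lines and 4, 2 and 1 in the NOCT lines. Exons of other entries cover 33.6% of the exon bases of SNRPN, so reads there could go unassigned. Its other 2269 exon bases lie in no other entry on that strand, and no read was counted there in any library. Of its 735 coding bases, however, only 245 lie outside the exons of SNURF, so most coding reads could go unassigned. SNURF, which shares exons with SNRPN, also had 0 counts. Reads in the shared exons could go unassigned for both, so these values are not independent. SNHG14, the long noncoding transcript of the same paternal copy, had 1 count in each of GST line 2 and NOCT line 4 and 0 in the other lines. UBE3A (ENSG00000114062, chr15:25333728-25439056), a ubiquitin ligase gene expressed from the maternal copy in neurons and from both copies in most other cells, had 145, 149 and 142 CPM in the GST lines and 142, 137 and 141 CPM in the NOCT lines. HERC2, a ubiquitin ligase gene of the same region that is not imprinted, was also expressed, with 107 to 134 CPM.

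Other regions held silent genes beside expressed ones. NNAT, a membrane protein gene, had 0 counts in every library, while BLCAP, the gene whose intron holds it, was expressed in all 6 (values below). On chromosome 14, DLK1, a gene related to Notch ligands, had 0 counts, and the maternally expressed noncoding RNA MEG3 had 12, 0 and 5 counts in the GST lines and 44, 5 and 0 in the NOCT lines. MEG3 thus reached its highest count in NOCT line 4 and was undetected in 1 line of each group. On chromosome 11, the noncoding RNA H19 had 1 count in GST line 8 and 0 elsewhere. IGF2, the fetal growth factor, had 2, 1 and 1 counts in the GST lines and 5, 3 and 3 in the NOCT lines. Its value is uncertain because 73.7% of its exon bases are shared with other entries of the annotation.

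PEG3, a zinc finger gene, had 9, 24 and 9 counts in the GST lines and 28, 13 and 1 in the NOCT lines. NOCT line 12 was the lowest, and GST line 8 and NOCT line 4 were the highest. ZIM2, which shares 41.2% of its exon bases with PEG3, had 2 counts in NOCT line 4 and 0 elsewhere. NAP1L5, a nucleosome assembly family gene, had 1 count in each of GST line 2 and NOCT line 4 and 0 elsewhere, and NLRP2, an NLR family gene, had 1 count in each of GST line 2, NOCT line 4 and NOCT line 12. DIRAS3, a small GTPase gene, was low in all lines, with 15, 16 and 9 counts in the GST lines and 15, 15 and 9 in the NOCT lines.

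Ranked by mean TPM over the 6 lines, PEG10 and GNAS had the highest levels. PEG10, a protein-coding gene derived from a retrotransposon, had 174 ± 22.0 TPM in the GST lines and 134 ± 62.0 in the NOCT lines (SD, n = 3 each). GNAS, which encodes the stimulatory G protein alpha subunit, had 131 ± 7.75 TPM and 138 ± 32.4. These 2 genes did not differ beyond their spread. Then came IGF2R (33.9 TPM), ZDBF2 (33.3) and UBE3A (32.1), which were close to each other, followed by GRB10 (20.5), INPP5F (18.6), PPP1R9A (16.7), TP73 (11.5) and ZNF597 (11.2). BLCAP (8.98 TPM), PLAGL1 (7.98), L3MBTL1 (6.01), SGCE (5.55), KCNQ1OT1 (5.00), MEST (3.13), PHLDA2 (2.11) and HYMAI (1.78) were lower. In all, 14 of the 34 stayed at or under 1 TPM in every line.

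**Figure D1:**
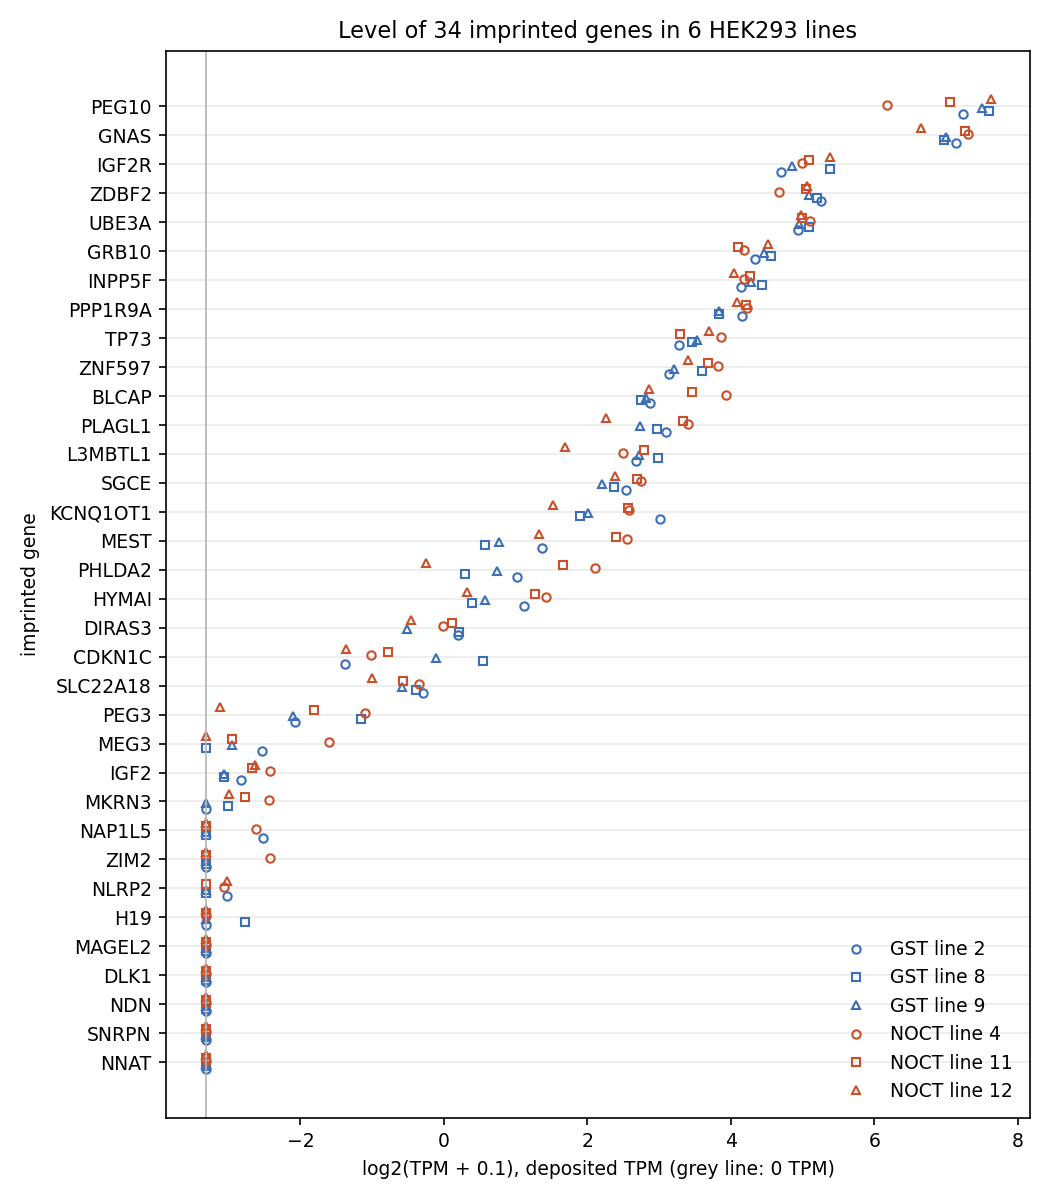
Deposited level of each of the 34 imprinted genes as log2(TPM + 0.1) on the horizontal axis, 1 marker per clonal line, with genes on the vertical axis and a grey line at 0 TPM. PEG10 and GNAS have the highest means, 154 and 134 TPM, and NNAT, SNRPN, NDN, DLK1 and MAGEL2 sit at 0 in all 6 lines.

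The spread between clones was measured as the ratio of the highest to the lowest CPM among the 3 lines of a group, for genes averaging 1 CPM or more over the 6 lines. There was 1 library per clone, so these ratios carry no replicate of their own, and their 95% intervals cover counting error only. In the GST lines, 1 of the 18 expressed imprinted genes had a ratio of at least 2 (5.56%), KCNQ1OT1, against a background of 7.31% of 14926 genes, and without GST line 2 there were 0. In the NOCT lines, 6 of 18 had one (33.3%), PEG10, MEST, L3MBTL1, PLAGL1, HYMAI and KCNQ1OT1, against 12.6% of all genes. PLAGL1 and HYMAI share 1 start, though PLAGL1 also has others, and they are not independent of each other. BLCAP, at 1.93-fold (1.72 to 2.17), lay just under the limit, and L3MBTL1 (2.08), PLAGL1 and HYMAI (2.06 each) and KCNQ1OT1 (2.01) just above it. Between NOCT lines 4 and 11 alone, 0 of 18 imprinted genes differed by 2-fold, against 2.68% of all genes. The median ratio of the 18 was 1.24 in the GST lines and 1.45 in the NOCT lines, against 1.23 and 1.31 over all genes.

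The lines did not contribute evenly to the extremes. NOCT line 12 had the lowest level of the 6 lines for 7 of the 18 genes, where 17.8% of all genes were lowest in that line. It had the highest level for 2, where 18.5% of all genes were highest. The 7 include PLAGL1 and HYMAI, which are not independent, and GNAS and L3MBTL1, whose neighbours were also lowest there. NOCT line 4 was highest for 6 and lowest for 2, with 22.1% and 21.6% of all genes. GST line 2 was highest for 5 and GST line 8 for 4, with 16.7% and 15.6% of all genes. GST line 9 was highest for 0 and lowest for 1, with 13.5% and 13.7% of all genes. Library NOCT 12 also differed most from the other libraries of its group over all genes, with a chi-square per degree of freedom of the counts of 28.8 and 42.6 against the other two lines.

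KCNQ1OT1 (ENSG00000269821, chr11:2608328-2699994, minus strand), the long noncoding RNA that silences its domain on the paternal copy, had the widest spread within groups of the 18 genes. It had 271, 115 and 129 CPM in the GST lines and 174, 180 and 89.3 CPM in the NOCT lines. GST line 2 was 2.36-fold above GST line 8 (2.25 to 2.48), and NOCT line 11 was 2.01-fold above NOCT line 12 (1.90 to 2.13). Its standard deviation within groups lay at the 93.3 percentile of all genes averaging 1 CPM or more, whatever their level. The neighbouring genes on chromosome 11 did not share the pattern. For up to 50 expressed genes on each side, the median log2 level relative to the 6-line mean was 0.00, 0.02 and 0.04 in the GST lines and 0.02, -0.07 and -0.02 in the NOCT lines, while KCNQ1OT1 stood at 0.86, -0.39 and -0.21, then 0.22, 0.27 and -0.74. The transcript is a single unspliced unit of 91667 bases inside KCNQ1, on the opposite strand. The libraries keep strand, per the labels, but the setting used in counting was not given in the sources used here. KCNQ1 itself had 0.269 to 0.785 CPM. The share of reads outside any feature was 30.6%, 27.8% and 26.5% in the GST lines and 26.7%, 27.8% and 28.3% in the NOCT lines: it was highest in the GST line with the highest KCNQ1OT1 level and, among the NOCT lines, highest in the line with the lowest. Its part in the result was not tested.

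The genes that KCNQ1OT1 is known to silence were low. CDKN1C, a cell cycle inhibitor, had 5, 25 and 15 counts in the GST lines and 8, 9 and 5 in the NOCT lines, and failed the filter on low counts. GST line 8 was 4.40-fold above GST line 2 (1.65 to 14.7), the reverse of their order for KCNQ1OT1. For PHLDA2, GST line 2 was 1.85-fold above GST line 8 (0.710 to 5.14), which is within counting error. For SLC22A18 these lines had nearly equal counts, and GST line 9 was the lowest of its group, unlike for KCNQ1OT1. PHLDA2, which restricts placental growth, had 13, 8 and 11 counts and 33, 22 and 5 counts, and SLC22A18, a transporter gene, had 27, 26 and 22 counts and 30, 23 and 15 counts. By CPM, NOCT line 12 was the lowest of the 6 for CDKN1C, PHLDA2 and SLC22A18, as it was for KCNQ1OT1. NAP1L4 (66.8 to 74.7 CPM) and CD81 (69.3 to 84.9 CPM), which lie in or next to the domain, spread far less.

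PEG10 (ENSG00000242265, chr7:94656325-94669695, plus strand), a paternally expressed gene, had 374, 443 and 433 CPM in the GST lines and 156, 298 and 464 CPM in the NOCT lines. NOCT line 4 was the lowest of the 6 and NOCT line 12 the highest, 2.97-fold apart (2.86 to 3.08). The neighbours of PEG10 stayed between -0.04 and 0.05 on the log2 scale relative to the 6-line mean. SGCE, a sarcoglycan gene that starts beside PEG10 on the other strand and shares its control region, did not follow this order, with 44.2, 36.4 and 33.7 CPM and 44.4, 44.5 and 37.6 CPM. PPP1R9A, a phosphatase regulator gene of the same region, had 73.1, 54.4 and 57.0 CPM and 66.6, 69.2 and 66.6 CPM. Neither differed by 2-fold within a group. The flanking genes CASD1 (16.0 to 17.9 CPM) and PON2 (43.5 to 54.6 CPM) also stayed within a narrow range. TFPI2, another gene near PEG10 and SGCE, did not, with 1.53 to 20.3 CPM (values by line below).

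PLAGL1, a zinc finger gene with antiproliferative activity, and HYMAI, a noncoding RNA that shares a start with it, were both lowest in NOCT line 12. PLAGL1 had 27.3, 23.2 and 20.6 CPM in the GST lines and 29.6, 29.3 and 14.4 CPM in the NOCT lines. HYMAI had 2.58, 1.39 and 1.67 CPM and 2.79, 2.60 and 1.35 CPM. NOCT lines 4 and 12 were 2.06-fold apart for PLAGL1 (1.79 to 2.36) and for HYMAI (1.30 to 3.34). HYMAI lies inside PLAGL1 on the same strand, so intronic reads of PLAGL1 and reads of HYMAI cannot be told apart. On the log2 scale relative to the 6-line mean, the neighbours stood at 0.02, 0.02 and -0.18 in the GST lines. In the NOCT lines they stood at 0.01, 0.07 and 0.12, so they were not low in NOCT line 12. GST line 9, lowest for the neighbours, was also the lowest GST line for PLAGL1. With the neighbours' level removed, the GST ratio of PLAGL1 went from 1.32 to 1.17 and its NOCT ratio from 2.06 to 2.22.

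The 3 genes of chromosome 20 with clear expression lie in a stretch whose neighbours moved between lines. Around L3MBTL1 the neighbours stood at 0.13, -0.21 and -0.02 in the GST lines and 0.22, 0.18 and -0.28 in the NOCT lines, on the log2 scale relative to the 6-line mean. L3MBTL1, a chromatin reader gene, had 25.0, 28.8 and 24.8 CPM and 19, 24.5 and 11.8 CPM. NOCT line 12 was the lowest of the 6, 2.08-fold under NOCT line 11 (1.78 to 2.43). BLCAP, a membrane protein gene, had 21.1, 17.9 and 19.7 CPM and 38.3, 28.8 and 19.9 CPM, so NOCT lines 4 and 11 were above the other 4. GNAS had 694, 574 and 613 CPM and 681, 691 and 471 CPM, and its neighbours stood at 0.22, -0.25 and -0.02, then 0.18, 0.10 and -0.29. GNAS therefore had the order of its neighbours in the GST lines, and its lowest line, NOCT 12, was also theirs. With the neighbours' level removed, the ratio of the highest to the lowest NOCT line was 1.502 for L3MBTL1, which ended its 2-fold spread, 1.32 for BLCAP and 1.12 for GNAS. For the other 5 genes with a 2-fold spread among NOCT lines it stayed at 2.09 or more. Among the GST lines the same step raised the ratio of L3MBTL1, to 1.458, and lowered that of BLCAP, to 1.080, and of GNAS, to 1.143. L3MBTL1 was highest in GST line 8, where its neighbours were lowest among the GST lines, so it did not follow them in that group.

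UBE3A lay at the other end. Its standard deviation within groups was 0.030 on the log2 scale, which was smaller than in all but 0.368% of genes at 1 CPM or more. The 3 GST lines differed by at most 1.05-fold and the 3 NOCT lines by at most 1.03-fold. IGF2R, the receptor that clears IGF2, had 143, 212 and 154 CPM and 153, 170 and 220 CPM, with the highest lines GST 8 and NOCT 12 1.48-fold and 1.43-fold above the lowest of their groups.

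**Figure D2:**
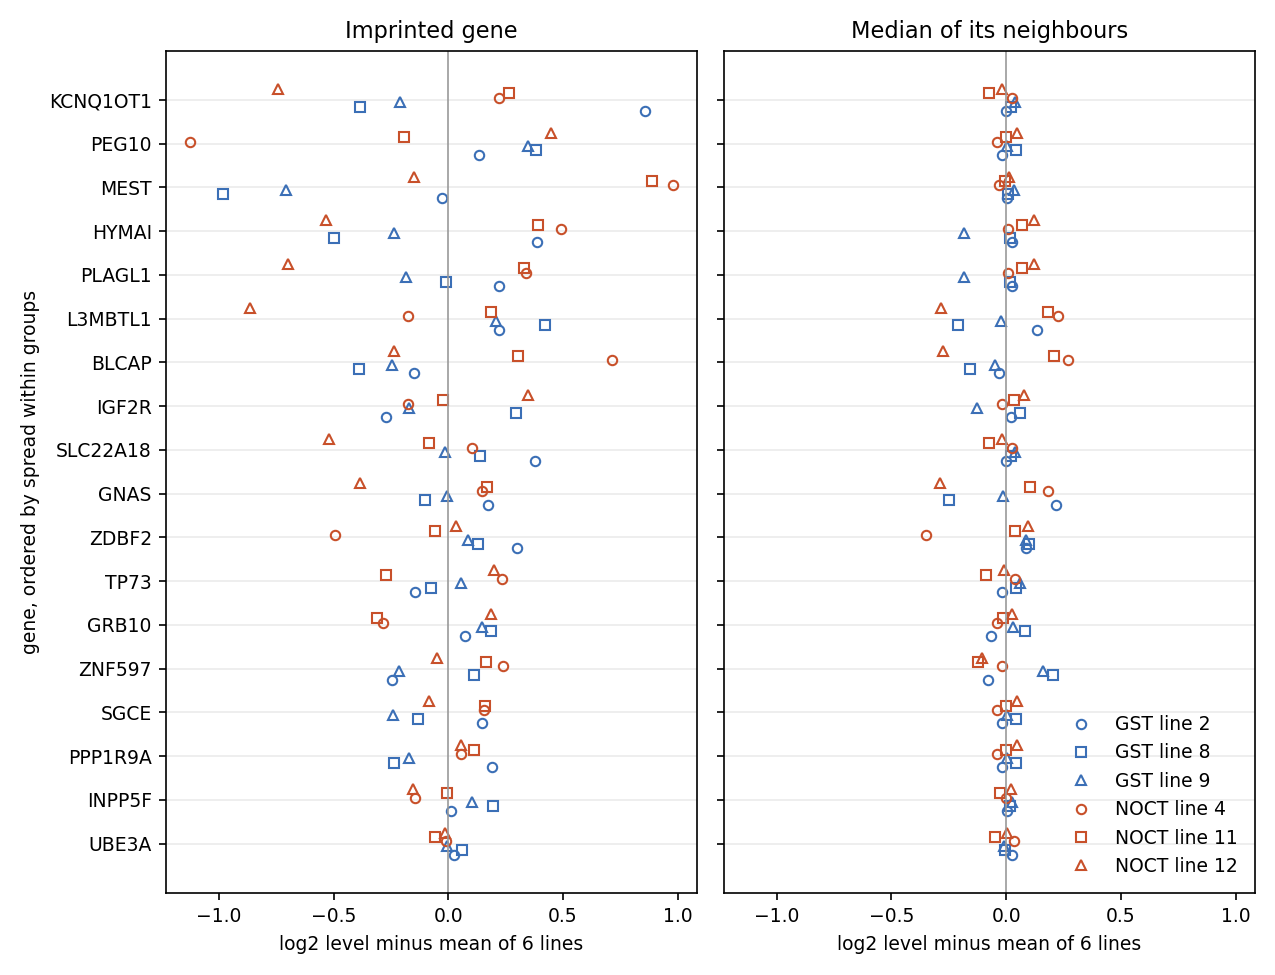
Log2 level of each of the 18 expressed imprinted genes (left) and the median of its chromosomal neighbours (right), each minus the mean of 6 lines, with 1 marker per line and genes ordered by spread within groups. KCNQ1OT1 runs from 0.86 in GST line 2 to -0.74 in NOCT line 12 while its neighbours stay between -0.07 and 0.04.

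**Figure D3:**
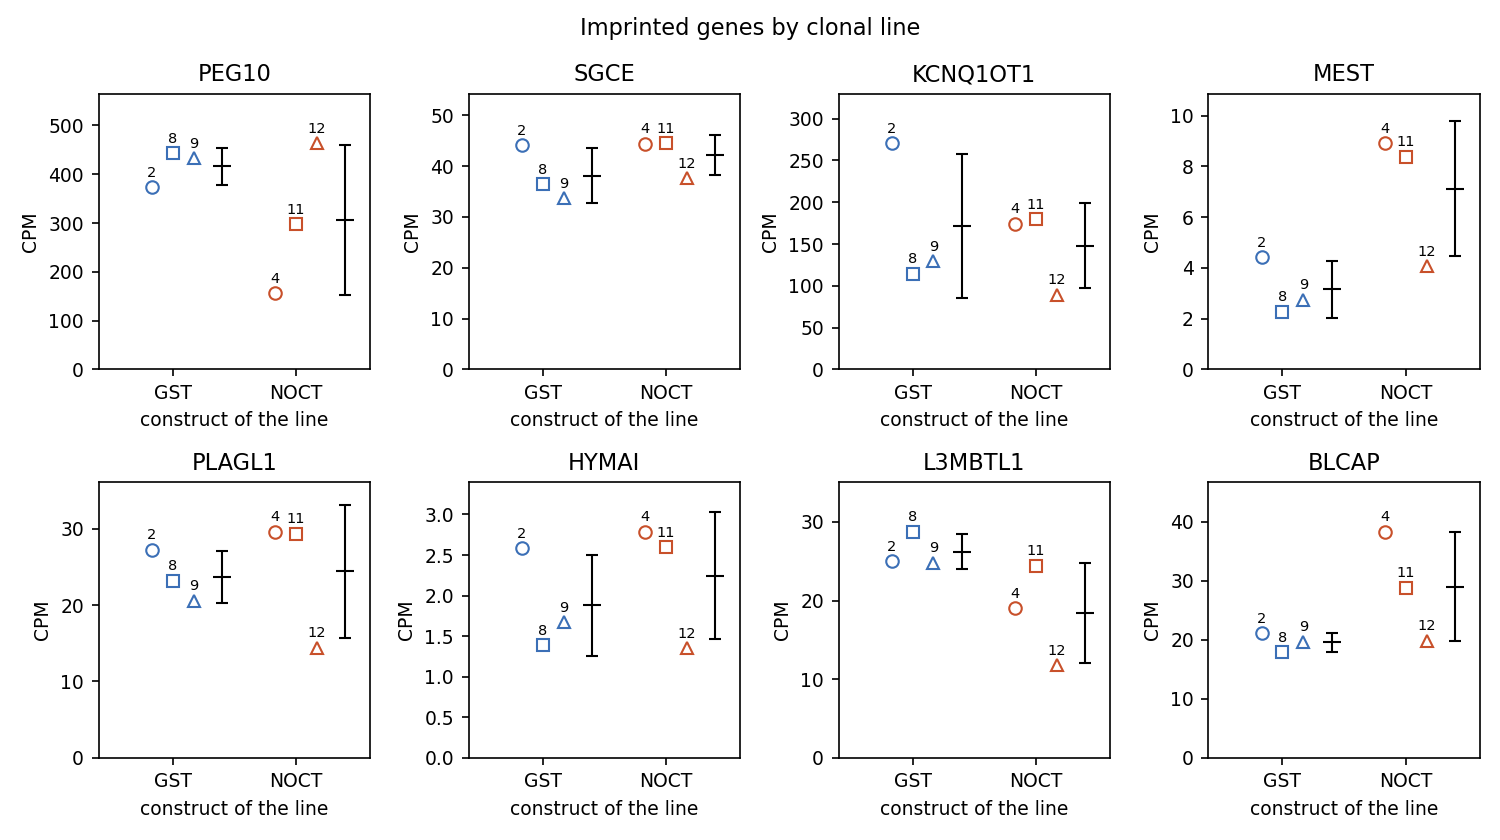
CPM of selected imprinted genes in each clonal line, GST lines on the left and NOCT lines on the right of every panel, with the mean and SD of 3 lines beside the points. PEG10 is lowest in NOCT line 4 (156 CPM) and KCNQ1OT1 in NOCT line 12 (89.3 CPM).

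The comparison of NOCT with GST lines asked which genes differ with nocturnin ∆(2-15). With edgeR's quasi-likelihood test over all 17261 genes, 0 of the 21 imprinted genes tested passed an adjusted p of 0.05, where 0.0579% of all genes did (10 genes, 0.0232% higher and 0.0348% lower in the NOCT lines). At an unadjusted p under 0.05, 2 of 21 passed, MEST and BLCAP, both higher in the NOCT lines (9.52%), against 13.9% of all genes, made up of 7.38% higher and 6.52% lower. DESeq2 gave 0 of 18 with an adjusted p under 0.05, against 3.41% of all genes. The median log2 fold change of the 21 was -0.03, with 10 above and 11 below 0, and 0.00 over all genes. The groups did not overlap for 4 of 21, UBE3A, ZDBF2, INPP5F and L3MBTL1, all lower in the NOCT lines, against 20.0% of all genes, made up of 10.5% higher and 9.54% lower. The share in either direction was thus near its background. For the lower direction 4 of 21 is more than the 9.54% of all genes, and no test was made of that difference. These counts are by CPM. By deposited TPM, the groups overlapped for UBE3A, INPP5F and L3MBTL1 and stayed apart for ZDBF2, so the count depends on the scale.

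MEST (ENSG00000106484, chr7:130486171-130506465, plus strand), a paternally expressed gene for a protein with a hydrolase fold, had 4.43, 2.27 and 2.75 CPM in the GST lines and 8.91, 8.38 and 4.06 CPM in the NOCT lines. The groups overlapped, because NOCT line 12 lay under GST line 2. The means were 3.15 ± 1.13 and 7.12 ± 2.66 CPM (SD, n = 3 each), and the log2 fold change was 1.18 ± 0.37 (SE), the largest of the 21. Its edgeR adjusted p was 0.230 and its DESeq2 adjusted p 0.0520. The authors' deposited table gives MEST a log2 fold change of 0.75, which the name of the table calls shrunken and which is therefore not on the scale of 1.18, with an adjusted p of 0.036, and it is the only imprinted gene called there, 1 of 22 (4.55%) against 2.87% of all genes with an adjusted p in that table. Without NOCT line 12 the log2 fold change was 1.46 with an edgeR adjusted p of 0.0276. MEST also varied within each group, 1.95-fold in the GST lines (1.35 to 2.83) and 2.19-fold in the NOCT lines (1.69 to 2.86). Its neighbours stayed between -0.03 and 0.03 on the log2 scale relative to the 6-line mean, and with their offset the log2 fold change was 1.21 with an adjusted p of 0.201. COPG2 (35.4 to 42.3 CPM) and CEP41 (19.7 to 29.2 CPM), which lie beside it, did not pass the test. MESTIT1, an antisense RNA that starts beside MEST, had 8, 2 and 4 counts in the GST lines and 2, 1 and 2 in the NOCT lines, and CPA4, a carboxypeptidase gene of the region, had 4, 0 and 0 counts and 82, 16 and 2. Both were too low to be tested, and most CPA4 reads came from NOCT line 4.

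BLCAP had a log2 fold change of 0.57 ± 0.22, with an unadjusted p of 0.0335 and an edgeR adjusted p of 0.312. Its neighbours were also higher in NOCT lines 4 and 11, at 0.27 and 0.21, and lower in NOCT line 12, at -0.28. With the neighbours' level as an offset in the edgeR fit, the log2 fold change was 0.39 with an adjusted p of 0.230. Without NOCT line 12 it was 0.78 with an adjusted p of 0.0284. L3MBTL1 had 26.2 ± 2.22 CPM in the GST lines and 18.4 ± 6.36 CPM in the NOCT lines, with no overlap, a log2 fold change of -0.51 ± 0.24 and an edgeR adjusted p of 0.398. With the neighbours' offset its log2 fold change was -0.63 with an adjusted p of 0.199.

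ZDBF2, a paternally expressed zinc finger gene, had 146, 130 and 126 CPM in the GST lines and 84.4, 114 and 122 CPM in the NOCT lines. The groups did not overlap, and NOCT line 4 was the lowest. Its log2 fold change was -0.33 ± 0.14 with an edgeR adjusted p of 0.360. The neighbours of ZDBF2 were lower in NOCT line 4 too, at -0.35, against 0.04 to 0.10 in the other 5 lines, and with their offset the log2 fold change was -0.18 (adjusted p 0.327). INPP5F, an inositol phosphatase gene, had 41.6, 47.2 and 44.3 CPM and 37.3, 41.1 and 37.0 CPM. These groups did not overlap either, though GST line 2 (41.6 CPM) and NOCT line 11 (41.1 CPM) nearly met, and the log2 fold change was -0.20 ± 0.10 (edgeR adjusted p 0.415). UBE3A, the most even gene, had means of 145 ± 3.38 and 140 ± 2.46 CPM and its log2 fold change was -0.05 (SE 0.08). The edgeR adjusted p was 0.793, and the fold change turned to 0.09 with library sizes from the spike-ins, where the median of all genes was 0.15.

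GRB10, an adaptor of the insulin and IGF receptors, had 73.0, 79.0 and 76.9 CPM in the GST lines and 56.9, 56.0 and 78.9 CPM in the NOCT lines. NOCT lines 4 and 11 lay under all GST lines, and NOCT line 12 lay among them. The log2 fold change was -0.26 ± 0.14 (edgeR adjusted p 0.460), and -0.43 with an adjusted p of 0.0423 without NOCT line 12. GRB10, MEST and BLCAP were the imprinted genes called when that line was left out, 3 of 21 (14.3%) against 5.17% of all genes. KCNQ1OT1 and PEG10, the genes with the widest spread between clones, had log2 fold changes of -0.21 ± 0.36 and -0.45 ± 0.32, with edgeR adjusted p values of 0.826 and 0.577.

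The other 12 genes tested had edgeR adjusted p values of up to 0.952. TP73, a p53 family gene, had 24.1, 25.4 and 27.7 CPM in the GST lines and 31.4, 22.1 and 30.6 CPM in the NOCT lines. ZNF597, a zinc finger gene, had 17.8, 22.8 and 18.2 CPM and 24.9, 23.7 and 20.4 CPM. The groups overlapped for both. The neighbours of ZNF597 stood at -0.08, 0.21 and 0.16, then -0.02, -0.12 and -0.11. With their offset in the edgeR fit, its log2 fold change went from 0.23 to 0.41 (adjusted p 0.194). In that fit 5 of 21 imprinted genes had an unadjusted p under 0.05, against 2518 of all 17261 genes. Without the offset, the range over the 21 genes ran from -0.51 for L3MBTL1 to 1.18 for MEST.

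**Figure D4:**
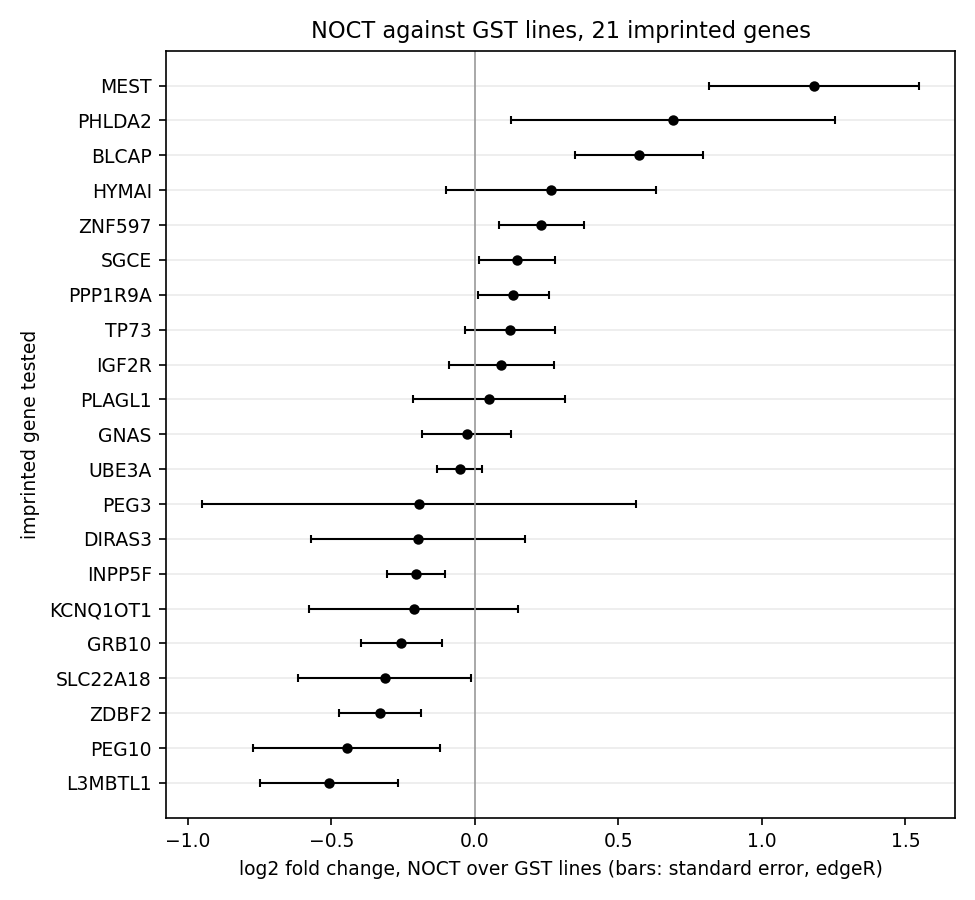
Log2 fold change of NOCT over GST lines for the 21 imprinted genes tested, with genes on the vertical axis and bars of 1 standard error from edgeR. The values run from -0.51 (L3MBTL1) to 1.18 (MEST), and no adjusted p is under 0.230.

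The machinery that sets and keeps imprints was described from a list of 30 genes, of which 23 were tested. With edgeR, 0 passed an adjusted p of 0.05 and 3 had an unadjusted p under 0.05 (13.0%, against 13.9% of all genes), and DESeq2 called 0, against 3.41% of all genes. ZFP57 was nearly absent, with 1, 1 and 2 counts in the GST lines and 6, 4 and 1 in the NOCT lines, whereas ZNF445, another zinc finger protein that maintains imprints, had 35.5 to 47.1 CPM. TRIM28, the corepressor that both recruit, had 331 ± 33.2 CPM in the GST lines and 375 ± 42.6 in the NOCT lines. DNMT1, the maintenance DNA methyltransferase, had 303 ± 6.44 and 299 ± 11.1 CPM. The genes with the smallest p values were the chromatin genes ARID4A, at 40.4, 26.9 and 27.3 CPM and 42.5, 49.3 and 39.8 CPM (log2 fold change 0.48 ± 0.18, edgeR adjusted p 0.288), ARID4B (0.24 ± 0.09, adjusted p 0.298) and ATRX (-0.25 ± 0.10, adjusted p 0.311). NOCT line 12 and GST line 2 overlapped for ARID4A.

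Other transcripts of the same regions numbered 70 in the tables, of which 33 were tested and 30 had at most 3 counts in every library. With edgeR 0 passed an adjusted p of 0.05, 5 had an unadjusted p under 0.05 (15.2%, against 13.9% of all genes), and DESeq2 called 1 of 30 with an adjusted p (3.33%, against 3.41%). The gene called was TFPI2, a protease inhibitor gene near PEG10 and SGCE that is imprinted in placenta, with 4.06, 1.53 and 2.85 CPM in the GST lines and 20.3, 19.8 and 5.21 CPM in the NOCT lines. All 3 NOCT lines lay above all 3 GST lines, with NOCT line 12 nearest to them. The means were 2.81 ± 1.26 and 15.1 ± 8.58 CPM and the log2 fold change was 2.43 ± 0.54, with an edgeR adjusted p of 0.155 and a DESeq2 adjusted p of 6.83e-05. TFPI2 and PEG10 had opposite orders in the NOCT lines.

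Of 25 genes of the IGF2 growth axis, 23 were tested. With edgeR 0 passed, 4 had an unadjusted p under 0.05 (17.4%, against 13.9% of all genes; 2 higher and 2 lower), and DESeq2 called 2 of 22 with an adjusted p (9.09%, against 3.41%). IGFBP7, a secreted IGF binding protein gene, had 5.27, 5.57 and 2.85 CPM in the GST lines and 23.8, 16.5 and 16.8 CPM in the NOCT lines, a log2 fold change of 2.06 ± 0.28 with an edgeR adjusted p of 0.0563 and a DESeq2 adjusted p of 1.94e-10. IRS2, a substrate of the insulin and IGF1 receptors, had 31.9, 23.6 and 26.4 CPM and 14.7, 13.7 and 15.7 CPM, a log2 fold change of -0.89 ± 0.15 with an edgeR adjusted p of 0.0847 and a DESeq2 adjusted p of 3.89e-05. Neither gene is imprinted on the list used here, and the groups did not overlap for either. The median log2 fold changes of the 3 lists were -0.03, -0.03 and -0.02.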

How the data were processed

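RNA was measured in 3 GST and 3 NOCT lines, 1 library each. Per the submitters' processing notes, which give no roles, the tools included cutadapt 1.8.1, Trimmomatic 0.33, STAR 2.5.2b and HTSeq 0.6.1p1, with the genome build GRCh38. The annotation release is not given in the sources used here. The authors deposited whole-number read counts per gene, TPM values computed from them, and a table of log2 fold changes that its name calls shrunken, p-values and adjusted p-values, with DESeq2 1.16.1 among the tools named in the notes. The authors' mean normalised counts (a signal) and Wald statistics (a score) in that table were not used. Rows that name no gene held 42.9% to 47.1% of the reads and were left out. No 2 libraries agreed within sampling noise: chi-square per degree of freedom between lines of a group was 7.40 to 42.6. With 1 library per clone, differences between clones cannot be told apart from differences in culture or library preparation. The p-values set the difference between groups against this mixed variation between lines.

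Counts were tested with edgeR 4.0.16 in R 4.3.3 (filterByExpr, TMM, quasi-likelihood, Benjamini-Hochberg over 17261 genes, adjusted p under 0.05). The coefficient of biological variation was 19.7%. Spread between lines used genes averaging 1 CPM or more, exact 95% intervals of counts, and a 2-fold limit. The neighbour value is the median over up to 50 such genes on each side. Log2 levels added 0.5 counts. Alternatives were DESeq2 1.42.0, RLE factors, spike-in library sizes, no low-count filter, limma 3.58.1 (voom, and log2 of TPM plus 1 or 0.1), the neighbour offset, 5 CPM, and leaving out each line. The edgeR and neighbour steps were tested on simulated data. Coordinates are from GENCODE release 29 (GRCh38), with 58275 of 58395 gene rows matched, and promoter windows from RefSeq.

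The imprinted genes, the gene lists and the tests were chosen with earlier results of these data known. Imprinted genes were described by line where they averaged 1 CPM or more and passed the test, had an unadjusted p under 0.05, did not overlap between groups or varied 2-fold within a group, and so was the highest gene of each region. From each gene list, genes called by edgeR or DESeq2, or else the 3 with the smallest p-values, were named, and further genes (the imprint-keeping ZFP57, ZNF445, TRIM28 and DNMT1, SNURF, SNHG14 and flanking or antisense genes of the regions) were added after their values were seen.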

Additional observations from a re-analysis of the deposited data

How the results depend on the processing

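No paired analysis was possible because the line numbers of the GST and NOCT groups do not coincide. Over all genes, edgeR called 10 genes, DESeq2 508, spike-in library sizes 22 (14 higher and 8 lower, against 4 and 6), no low-count filter 888, voom 16, log2(TPM + 1) 7 (4 higher and 3 lower), the neighbour offset 36, and leaving out 1 line 0 (without GST line 9, with 1420 at an unadjusted p under 0.05) to 893 (without NOCT line 12), with 5, 6 and 1 without GST line 2, GST line 8 and NOCT line 11. Imprinted genes called went from 0 to 1 (MEST) with no filter, and leaving out 1 line gave 0 to 3. A 2-fold spread among GST lines was found for 1 imprinted gene, and for 0 to 1 when a line was left out (0 without GST line 2). Among NOCT lines it was found for 6, for 5 at a minimum of 5 CPM, for 5 with the neighbours' level removed, and for 0 to 6 when a line was left out (0 without NOCT line 12, 4 without line 4 or line 11).

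Of 294 alternatives for single imprinted genes, 272 kept direction and call, 4 gained the call and 18 changed sign. With spike-ins GNAS turned to 0.12 and UBE3A to 0.093. On the log2(TPM + 1) and log2(TPM + 0.1) scales both gave 0.041 for GNAS, and UBE3A gave 0.032 and 0.033. PLAGL1 turned to -0.047 with the neighbour offset. When 1 line was left out, GNAS ran from -0.13 (without NOCT line 11) to 0.13 (without NOCT line 12), PLAGL1 from -0.12 (NOCT line 4) to 0.32 (NOCT line 12), IGF2R from -0.071 (NOCT line 12) to 0.28 (GST line 8), PEG3 from -1.06 (NOCT line 4) to 0.37 (GST line 8), and KCNQ1OT1 from -0.44 (GST line 8) to 0.28 (GST line 2). None of the sign changes passed the test, and their cause was not tested. The median of all genes moved from 0.00 to 0.15 with spike-ins and to 0.07 and 0.08 on the TPM scales. At this depth, genes with at most 3 counts in each library allow no statement on differences between lines.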
